A study of Mus musculus with 2 samples.

Results

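A group of 10 genes of the Notch pathway was examined for UPF1 binding in mouse neural progenitor cells: the receptors Notch1, Notch2 and Notch3, the ligands Dll1, Dll3 and Jag1, the DNA-binding protein Rbpj, and the target genes Hes1, Hes5 and Hey1. For each gene the deposited UPF1 clusters were taken, stretches of RNA where immunoprecipitate reads piled up, that overlap its RefSeq locus on its strand. All 10 genes had at least 1 cluster, and together they held 168 of the 123349 clusters in the list. In all, 10860 annotated genes had a cluster on their strand. The assay was enhanced crosslinking and immunoprecipitation (eCLIP), in which protein and RNA are crosslinked, the RNA is trimmed with RNase I, and the fragments pulled down with an antibody against UPF1 are compared with an input library. The UPF1 immunoprecipitate, labelled UPF1_MOCK, and its input, labelled UPF1_MOCK_INPUT, were 1 library each. Both came from cultured neural progenitor cells of cortex with the genotype Upf2fl/fl, that is, with a loxP-flanked Upf2 allele. The labels name no Cre and do not explain the word MOCK. There were no replicates, so the spread between cultures is unknown and no test between conditions was made.

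Notch signalling runs between touching cells. A Delta or Jagged ligand on one cell makes the receptor on its neighbour accessible to proteases, and the freed intracellular domain enters the nucleus, binds RBPJ and switches on Hes and Hey genes. The HES and HEY proteins are repressors that hold back neuronal differentiation, so the pathway is known for maintaining the pool of cortical progenitors. UPF1 is an RNA helicase required for nonsense-mediated decay, which removes transcripts whose translation stops early. It is known to bind many other RNAs too, mostly in their 3′ untranslated regions.

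The authors gave each cluster 2 values, how far the immunoprecipitate exceeded input (a log2 fold) and the −log10 p of that excess. A cluster was called enriched where both values reached 3. Read counts behind fold and p were reconstructed for all 124 clusters of these genes with a fold above 0, and the intervals given with folds are exact Clopper-Pearson 95% intervals from those counts, which cover counting error only. The input count was 1 in 12 of the 20 enriched clusters described below, so single folds are imprecise. Marker genes of several cell types were examined. All 8 progenitor markers had a cluster, as did all 5 astrocyte, 4 of 5 oligodendrocyte-lineage and 5 of 6 neuronal markers. None of the 4 microglial and none of the 2 blood markers had one, and 1 of 3 vessel markers did. Among markers with a cluster, 5 of 8 progenitor, 5 of 5 astrocyte, 4 of 4 oligodendrocyte-lineage and 2 of 5 neuronal ones had an enriched cluster. Over all genes with a cluster the share was 31.5%. The progenitor markers without an enriched cluster were Vim, Pax6 and Hopx. These counts cannot tell progenitors from astrocytes or other neural cells.

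UPF1 was enriched on the RNA of 5 of the 10 genes: Notch2, Notch3, Rbpj, Hey1 and Hes5. Of all genes with a cluster 31.5% were enriched, as were 11.6% of all clusters. Notch2 stood out by number, with 12 of its 45 clusters enriched, and Notch3 followed with 3 of 23. The ligands held no enriched cluster among 27, and neither did Notch1 among 40 or Hes1 in its single cluster. All 20 enriched clusters lay in the last 5000 nt of their locus. Notch2 and Rbpj were called under every alternative tried. All enriched clusters of Notch3 and Hey1 had an input count of 1 and were lost when such clusters were left uncalled, and Hes5 and Hey1 were not called with a fold threshold of 4 or a −log10 p threshold of 5.

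Over the whole list 11.6% of clusters were enriched, and among the 10 Notch genes 20 of 168 were (11.9%, Wilson 95% interval 7.84 to 17.7). The share of the Notch genes is therefore close to that of the list. Without Notch2 it was 8 of 123 (6.504%, interval 3.33 to 12.3), so Notch2 supplied 12 of the 20 enriched clusters. Clusters of one gene share their RNA, and these intervals, which treat clusters as independent, are likely too narrow. Counted by gene, the 5 of 10 Notch genes with enrichment made up 50% (interval 23.7 to 76.3), against 31.5% of all genes with a cluster and 33.9% of the protein-coding ones. The Notch genes held more clusters each, with a median of 13 against 5 over all genes, and enrichment of a gene was commoner the more clusters it had. The share of enriched genes was 1.25% among the 1757 genes with 1 cluster, 39.6% with 5 to 9 clusters and 59.9% with 20 to 50. Of the 4 Notch genes with 20 to 50 clusters, 3 were enriched. The part of RNA amount in these counts was not tested, and in bulk material fewer cells with a transcript and less of it per cell cannot be told apart. The median over the 10 genes of the highest log2 fold was 3.34, against 2.30 over all genes. Among clusters in no other locus these medians were 2.498 and 2.44, and with clusters of an input count of 1 left out they were 2.23 (8 Notch genes) and 1.64.

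**Figure D1:**
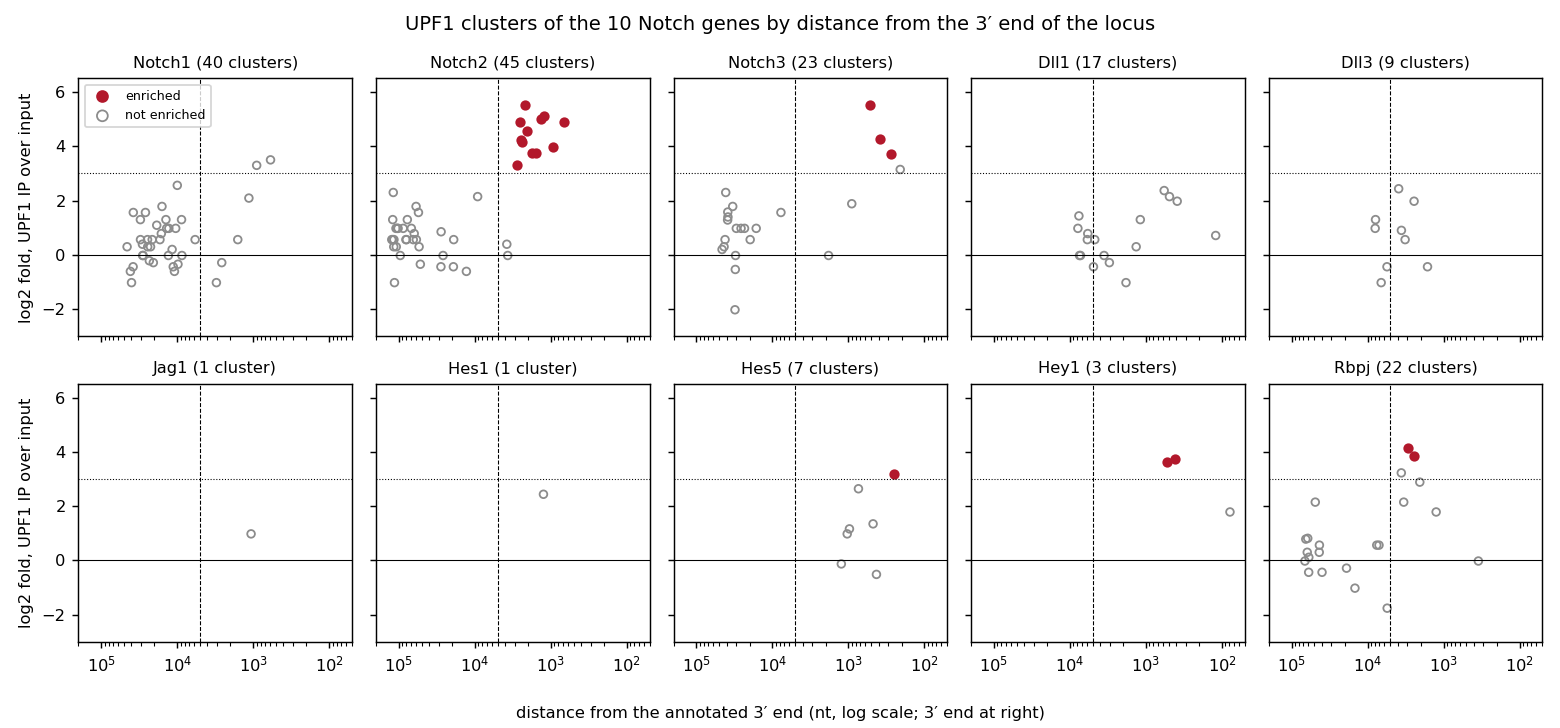
Log2 fold of the UPF1 immunoprecipitate over input (vertical axis) against distance from the annotated 3′ end (horizontal axis, nt, log scale, 3′ end at the right) for each of the 168 clusters of the 10 Notch genes, with enriched clusters as filled red points, the fold threshold of 3 dotted and the distance of 5000 nt dashed. The 20 enriched clusters lie right of the dashed line, in Notch2, Notch3, Hes5, Hey1 and Rbpj.

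The receptors are single-pass membrane proteins that are cut on ligand binding. Notch2 (chromosome 3, 98013538 to 98150367, GRCm38, plus strand) carried the longest enriched stretch of the 10 genes. Its 12 clusters nearest to the 3′ end were all enriched, and none of the 33 clusters upstream of them was. The stretch ran from 98147588 to 98149736, a span of 2149 nt of which clusters covered 1118 nt, and its cluster midpoints lay 678 nt to 2744.5 nt from the end of the locus. Within it 4 pairs of neighbouring clusters touch. The folds within it were 4.88, 3.98, 5.12, 5.00, 3.76, 3.76, 4.56, 5.53, 4.15, 4.22, 4.91 and 3.30, from the cluster nearest the 3′ end to the one farthest. The signal thus did not fall off steadily in either direction, and the intervals of all 12 overlap. The highest fold, 5.53 (interval 3.02 to 10.85), rested on 94 immunoprecipitate reads against 1 input read, and the deepest cluster on 141 against 2, with a fold of 5.12 (interval 3.24 to 8.18). Summed over the 12 clusters, 799 immunoprecipitate reads stood against 18 input reads, a pooled log2 fold of 4.45 (interval 3.78 to 5.21). Only enriched clusters enter this sum, so its fold and interval are raised by that choice. The next 2 clusters upstream, at 3688.5 and 3793.5 nt, had folds of -0.02 and 0.39. Across the 31 clusters beyond 5000 nt the median fold was 0.56, which is the value of 3 reads against 1, and the highest was 2.30.

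Notch3 (chromosome 17, 32120820 to 32166896, minus strand) reached the same highest fold as Notch2, 5.53 from 94 reads against 1, 527 nt from its 3′ end. Its enriched stretch was shorter. The 3 enriched clusters covered 364 nt between 32121052 and 32121437 and had folds of 3.73, 4.26 and 5.53, with 160 immunoprecipitate reads against 3 input reads in sum (pooled log2 fold 4.71, interval 3.14 to 7.01). This sum too holds only enriched clusters and is raised by that choice. The cluster between them and the 3′ end had a fold of 3.15 (18 reads against 1) at a −log10 p of 2.16, just outside the call. On the other side the folds were 1.88 at 903 nt and -0.02 at 1823.5 nt. This end of Notch3 lies inside the locus of Gm38585, a long non-coding RNA that RefSeq puts on the plus strand, whereas the clusters are on the minus strand like Notch3. If only clusters in no other locus were counted, Notch3 would hold no enriched cluster and its highest fold would be 2.30.

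Among the clusters of the 10 genes beyond 5000 nt with reconstructed counts, the most deeply read were also in Notch3. A run of 3 touching clusters of 608 nt in all, 7227 to 7600.5 nt from the 5′ end of the locus (32159165 to 32159772) and in no other annotated locus, had 123, 91 and 104 immunoprecipitate reads against 23, 15 and 21 input reads. Their folds were 1.39, 1.58 and 1.28, with −log10 p values of 4.84, 4.23 and 3.75 and a pooled log2 fold of 1.41 (interval 1.00 to 1.83). They were thus above input by a modest and comparatively well measured amount, far under the folds at the 3′ end of the same gene. These 3 clusters were picked by a −log10 p of at least 3, so an excess over input was built into their pooled fold. Input counts of 15 or more were found in 1.10% of all clusters with a fold above 0. Of all clusters in the list, 0.263% combined a fold under 2 with a −log10 p of at least 3. The annotation used here gives no exons, so whether this stretch is exonic was not analysed.

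Notch1 (chromosome 2, 26457902 to 26503822, minus strand), the receptor most often studied in cortical progenitors, had nearly as many clusters as Notch2 but none enriched. Its 2 clusters nearest the 3′ end had folds of 3.50 (interval 0.88 to 8.86) and 3.30 (interval 0.65 to 8.67), from 23 and 20 immunoprecipitate reads against 1 input read each. Both passed the fold threshold and missed the p threshold, with −log10 p of 2.79 and 2.38. With a −log10 p of 2 as the threshold, chosen after these values were seen, both would be called. The third, at 1140 nt, had a fold of 2.09 from 26 reads against 3. The next 3 clusters had folds of 0.56, -0.29 and -1.02. Over the 34 clusters beyond 5000 nt the median fold was 0.48, and the highest was 2.56 (interval -0.20 to 7.98), from 12 reads against 1 at 9981.5 nt. These first 3 clusters also lie in the locus 0610009E02Rik, a long non-coding RNA on the opposite strand. Over its 6 clusters within 5000 nt, with those at or below input entered at the smallest counts their fold allows, Notch1 had 84 immunoprecipitate reads against 12 input reads, a pooled log2 fold of 1.78 (interval 0.90 to 2.79). The same sum for Notch2 was 809 against 22, a pooled fold of 4.18 (interval 3.57 to 4.86), and for Notch3 195 against 7, a pooled fold of 3.78 (interval 2.71 to 5.11). The counting intervals of Notch1 and Notch2 do not overlap, while those of Notch1 and Notch3 do. This compares reads of 2 libraries and not conditions.

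**Figure D2:**
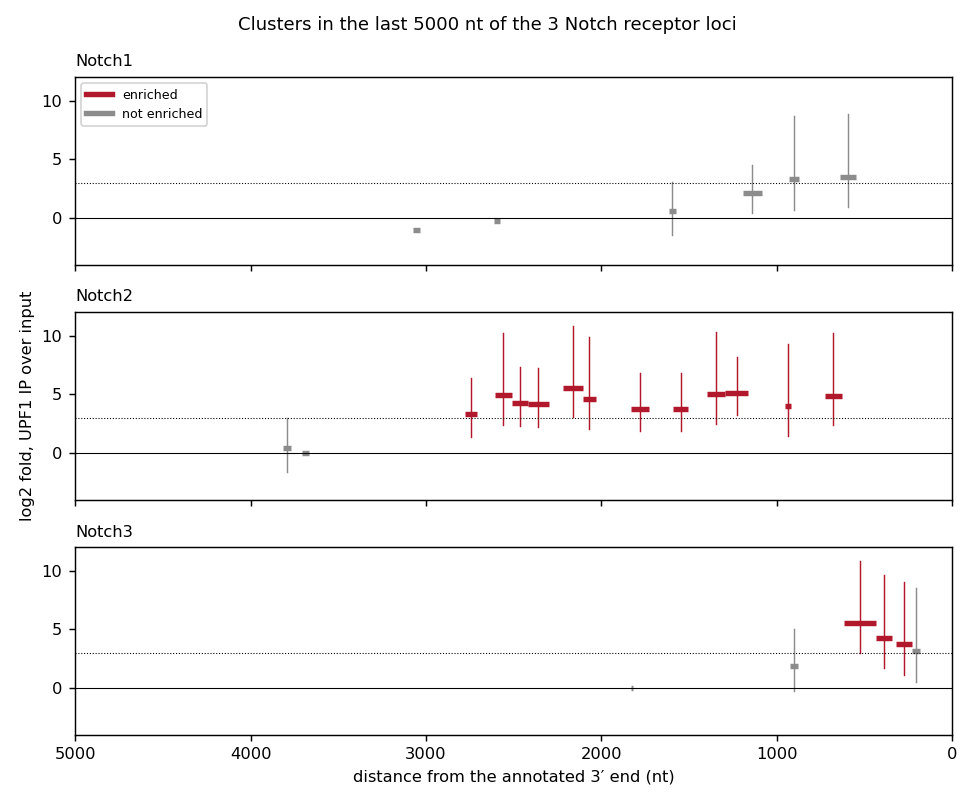
Log2 fold of the UPF1 immunoprecipitate over input (vertical axis) for clusters in the last 5000 nt of the Notch1, Notch2 and Notch3 loci, against distance from the annotated 3′ end (horizontal axis, nt). Thick bars span the cluster, thin lines are 95% counting intervals (none could be given for folds at or below 0), and the dotted line is the fold threshold of 3. Notch2 shows 12 enriched clusters over 2149 nt, Notch3 shows 3 in its last 1000 nt, and Notch1 shows 2 above the line that missed the p threshold.

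The ligands showed no enriched cluster. None of 27 clusters passed, which allows a share of up to 11.1% by the limit of 3 counts and up to 12.5% by the Wilson interval, values on either side of the 11.6% of the whole list. That reference mixes positions. Of the ligand clusters, 11 of Dll1, 5 of Dll3 and the 1 of Jag1 lay within 5000 nt of the 3′ end. Over all genes 34.1% of clusters there were enriched, against 1.64% of those beyond. No interval was computed for the ligands by position. Dll1, the Delta ligand made by differentiating neuronal precursors (chromosome 17, 15367354 to 15376932), had 17 clusters. Their highest fold was 2.37 (interval 0.34 to 5.51) from 21 reads against 2, at 576.5 nt from the 3′ end. The 2 clusters next to it on the 3′ side had folds of 2.15 and 1.98 from 9 and 8 reads against 1, and its 6 clusters below input all lay 1833 nt or more from that end. Dll3, a divergent Delta relative known in mice from the segmentation of the body axis (chromosome 7, 28293555 to 28301785), had 9 clusters with folds up to 2.44, that one from 11 reads against 1. Its highest fold lay 3900 nt from the 3′ end, and the cluster nearest to that end, at 1627.5 nt, had a fold of -0.44. Jag1, the Jagged ligand (chromosome 2, 137081451 to 137116520), had a single cluster in a locus of 35070 nt, with 4 reads against 1 and a fold of 0.98 (interval -2.36 to 6.60). Nothing can be said of Jag1 beyond the presence of that cluster.

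Rbpj encodes the DNA-binding protein through which the cleaved receptor acts (chromosome 5, 53555779 to 53657445, plus strand). It had 22 clusters, 2 of them enriched, with folds of 4.15 (interval 1.58 to 9.49) from 36 reads against 1 and 3.83 (interval 1.92 to 6.91) from 58 against 2. The clusters nearest to the 3′ end were not the highest: those at 348.5, 1252.5 and 2056 nt had folds of -0.02, 1.78 and 2.88, and the enriched ones lay at 2456.5 and 2982.5 nt. A cluster farther upstream, at 3600 nt, had a fold of 3.22 (19 reads against 1) but missed the p threshold. Beyond 5000 nt the median fold of its 15 clusters was 0.30 and the highest 2.15. Summed in the same way as for the receptors, the last 5000 nt of Rbpj held 146 immunoprecipitate reads against 8 input reads, a pooled log2 fold of 3.17 (interval 2.15 to 4.40). The 15 clusters beyond held 120 against 50, a pooled fold of 0.24 (interval -0.25 to 0.74).

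The 3 target genes lie in short loci, all of them shorter than 5000 nt, so distance to the 3′ end cannot separate near from far in them. Hey1 (chromosome 3, 8663359 to 8667038), a repressor related to the HES proteins, had 3 clusters. Those at 409.5 and 530 nt touch each other and were enriched, with folds of 3.73 (interval 1.13 to 9.09) and 3.62 (interval 1.01 to 8.98) from 27 and 25 reads against 1, and −log10 p values of 3.43 and 3.23, just inside the call. The cluster nearest the end had a fold of 1.78 from 14 reads against 2. Hes5, a main Notch target of cortical progenitors (chromosome 4, 154960626 to 154962372), was read more deeply. From the 3′ end, its 7 clusters had folds of 3.19, -0.52, 1.35, 2.64, 1.16, 0.98 and -0.13. The first, 253.5 nt from the 3′ end, was the only one enriched, from 37 reads against 2 (interval 1.23 to 6.28). The fourth had a −log10 p of 3.76 at a fold of 2.64 (38 reads against 3), and the sixth had 68 reads against 17. Over all 7 clusters, summed in the same way, Hes5 had 264 reads against 65, a pooled log2 fold of 0.998 (interval 0.60 to 1.41). Hes1, the other main HES repressor of progenitors (chromosome 16, 30065357 to 30067796), had 1 cluster with a fold of 2.44 (interval -0.35 to 7.86) from 11 reads against 1. At that depth its fold cannot be told from those of Hes5 or Hey1.

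**Figure D3:**
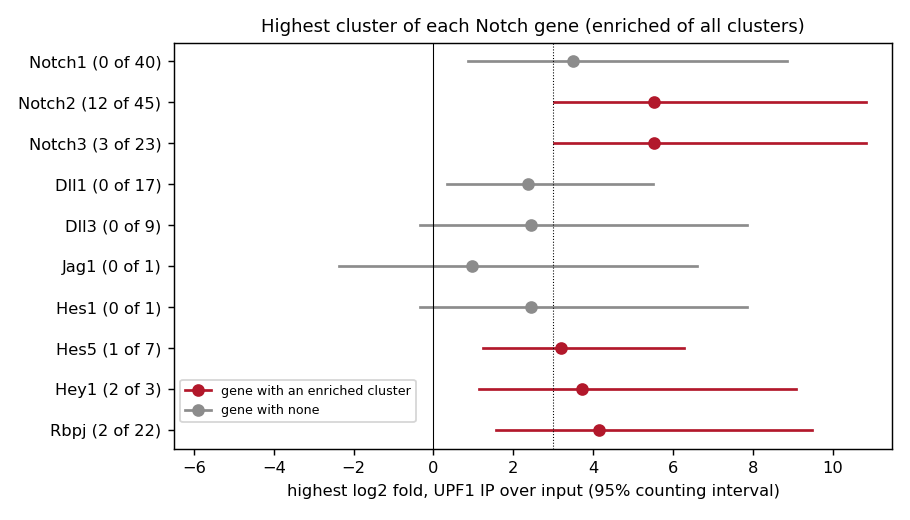
Highest log2 fold of the UPF1 immunoprecipitate over input in each Notch gene (points) with its 95% counting interval (lines), on the horizontal axis, with the number of enriched clusters of all clusters beside each name and the threshold of 3 dotted. Genes with an enriched cluster are red. Notch2 and Notch3 share the highest value, 5.53, and Jag1 has the lowest, 0.98, and the intervals of all 10 genes overlap.

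Ordered by highest fold the genes were Notch2 and Notch3 (5.53 each), Rbpj (4.15), Hey1 (3.73), Notch1 (3.50), Hes5 (3.19), Dll3 and Hes1 (2.44 each), Dll1 (2.37) and Jag1 (0.98). No neighbours in this order differ beyond their counting intervals. Among all genes with a cluster, the highest fold of Notch2 and Notch3 lay at the 93.9th percentile, that of Rbpj at the 79.4th, that of Notch1 at the 70.1st and that of Jag1 at the 18.9th. A highest fold also goes up with the number of clusters, in which Notch2 lay at the 96.0th percentile and Notch1 at the 95.2nd.

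Position along the locus was measured as the genomic distance, introns included, from a cluster's midpoint to the outer 3′ end of the locus. Within 5000 nt, 20 of 61 clusters of the Notch genes were enriched (32.8%, interval 22.3 to 45.3), against 34.1% of the clusters of all genes there. Beyond 5000 nt none of 107 was, which allows a share of up to 2.80%, against 1.64% of all clusters there. Both shares are close to those of the list at large, but within 5000 nt this rests on Notch2. That gene had 12 of its 14 clusters there enriched. By distance class, 8 of 22 clusters of the Notch genes were enriched in the last 1000 nt (36.4%, against 35.2% over all genes), 4 of 16 between 1000 and 2000 nt (25%, against 41.2%) and 8 of 23 between 2000 and 5000 nt (34.8%, against 27.2%). The intervals of the Notch genes include the value over all genes in each of these 3 classes. All 4 enriched clusters in the middle class belonged to Notch2. Without Notch2 the counts in the 3 classes were 6 of 20 (30%), 0 of 12 and 2 of 15 (13.3%). The interval of the middle class then reached 24.2%. Its count of 0 follows from leaving out the gene that held all 4 enriched clusters there. It therefore cannot be set against the 41.2% over all genes, from which no gene was left out. Clusters lay near the 5′ end of Notch3 at 112 nt, of Notch1 at 228.5 nt and of Dll3 at 279.5 nt, with folds of 0.20, 0.30 and 0.98. In the 8 genes whose strand is given in the RefSeq promoter table, all 164 clusters in the locus were on the strand of the gene and none on the other.

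**Figure D4:**
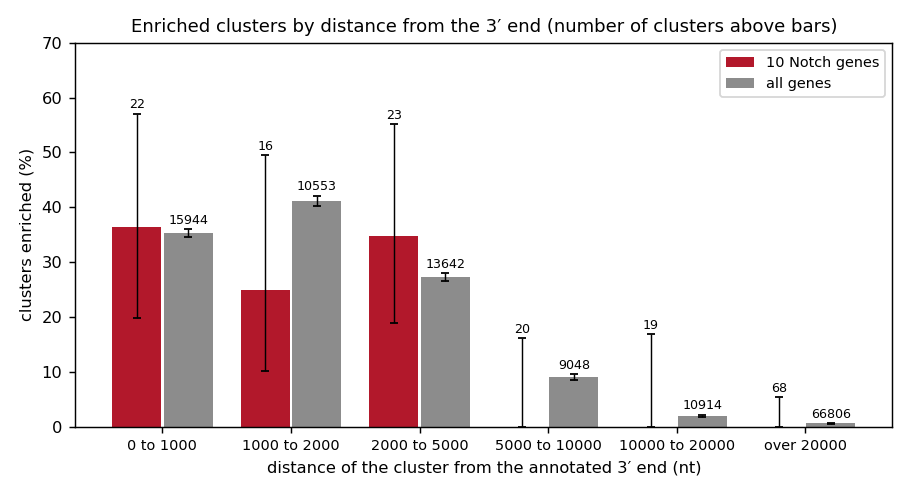
Share of clusters that were enriched (vertical axis, percent) by distance from the annotated 3′ end of the locus (horizontal axis, nt), for the 10 Notch genes (red) and all genes (grey), with Wilson 95% intervals and the number of clusters above each bar. The 20 enriched clusters of the Notch genes fall in the 3 classes within 5000 nt, and none of the 107 clusters in the 3 classes beyond was enriched.

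A further 44 genes of the pathway were examined, and 34 of them had a cluster. Enrichment was found in 18 of these 34 (52.9%, interval 36.7 to 68.5), against 31.5% of all genes, with a median highest fold of 3.26, against 2.30. They held a median of 8 clusters each, against 5 over all genes, and the part of cluster number in their share was not tested. By cluster, 53 of 476 were enriched (11.1%), close to the 11.6% of the list, and 51 of those 53 lay within 5000 nt of the 3′ end.

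The pathway genes are grouped here and in the next paragraph by roles assigned after the values were seen. The groups are small, and 31.5% of all genes with a cluster had an enriched one. Among the genes for receptor cleavage, 3 of 6 with a cluster were enriched. Aph1a, a subunit of the protease gamma-secretase, reached 4.33, and Adam17, a protease that can make the first cut, 4.22. Of the enzymes that add sugars to the receptor, 4 of 5 were enriched, with Lfng, the Fringe enzyme that tunes ligand choice, at 5.04 (interval 2.51 to 10.37) and Pofut1, the O-fucosyltransferase, at 4.70. Of the ubiquitin ligases and trafficking factors, 6 of 11 were enriched. Dtx4, a Deltex ligase, reached 5.51 (interval 3.001 to 10.83) with 15 of 25 clusters enriched, Numbl, a relative of the Notch inhibitor Numb, 4.78, and Dtx1 4.22. Numb itself had no enriched cluster among 17, its highest fold being 2.88 (interval 0.18 to 8.28) from 15 reads against 1, and Fbxw7, the F-box protein that marks the intracellular domain for degradation, had 10 with a highest fold of 1.30. Of these, 12 of the 17 of Numb and all 10 of Fbxw7 lay beyond 5000 nt of the 3′ end. There 1.64% of the clusters of all genes were enriched.

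Of the nuclear cofactors of RBPJ, 3 of 7 were enriched. Snw1, a splicing factor that also acts with RBPJ, reached 4.70 with all 4 clusters enriched, and Maml2, a Mastermind coactivator, 4.47. The acetyltransferases Crebbp and Ep300 had no enriched cluster among 49 and 18, and their highest folds were 2.68 and 1.78. All 49 clusters of Crebbp and 15 of the 18 of Ep300 lay beyond 5000 nt of the 3′ end, where enrichment was rare in all genes (1.64%). The highest fold of Crebbp lay 131984 nt from its 3′ end, near its 5′ end, from 52 reads against 4. Of the targets, 2 of 3 were enriched, led by Nrarp, a feedback inhibitor of the receptor's intracellular domain, at 5.06 (interval 2.54 to 10.39) with 3 of 8 clusters. Among the 5 further ligands only Dner had clusters, 36 of them without enrichment and at most at 2.30 (interval 0.98 to 3.98). Of those 36, 33 lay beyond 5000 nt. Notch4 had no cluster.

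**Figure D5:**
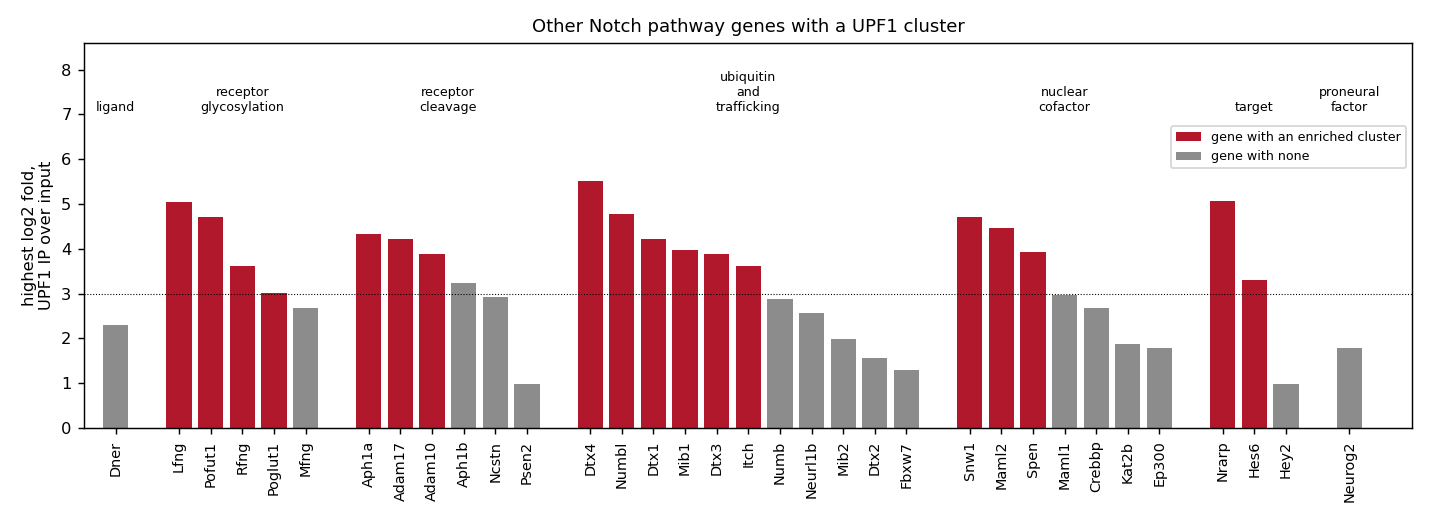
Highest log2 fold of the UPF1 immunoprecipitate over input (vertical axis) in each of the 34 further Notch pathway genes with a cluster, grouped by role. Red bars are the 18 genes with an enriched cluster, grey bars the others, and the dotted line is the fold threshold of 3. Aph1b lies above the line without passing the p threshold.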

How the data were processed

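One UPF1 immunoprecipitate and 1 input were compared through 1 deposited list of stranded clusters on mm10. Per the submitters' processing notes, UMI-tools, cutadapt and STAR were used. What called the clusters, and how folds were computed, is not given in the sources used here. This list has no header: from its values, the authors deposited a log2 fold of immunoprecipitate over input and a −log10 p, which runs from 0 to a cap of 400 and is 0 wherever the fold is not above 0 (32999 clusters).

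Clusters were joined to RefSeq loci of GRCm38.p6, the assembly mm10 names, by any overlap on the gene's strand. Strand came from the RefSeq promoter table (8 of the 10 genes) or, for Hes1, Hey1 and other genes without an entry, from the strand of at least 80% of the clusters. A cluster can count for several genes. Exons and genome sequence were not used here.

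Read counts were reconstructed as whole-number pairs that give both the deposited fold and p, taking the commonest fold as 3 reads against 1, which makes the immunoprecipitate library 2.03 times the input. A binomial test was assumed under 5 reads and a continuity-corrected chi-square test from there on, with a match within 0.05 or 1% of the −log10 p. Of 90350 clusters with a fold above 0, 99.6% were matched. An input of 1 may stand for no reads. The reconstruction was tested on simulated data (Python 3.11.15, SciPy 1.17.1).

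All 10 genes are described. Of the further pathway genes, those named are the enriched ones with the highest folds, up to 12 plus a tie (3 of these are not reported here and enter no count of the pathway list), the 5 with the most clusters and none enriched, and, chosen after their values were seen, Notch4 and Aph1b. Genes and lists were chosen with earlier results of these data known, and pathway roles were assigned after the values were seen.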

Additional observations from a re-analysis of the deposited data

How the results depend on the processing

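No paired analysis was possible because there is 1 library of each kind. Alternatives were a fold threshold of 2 or 4, a −log10 p threshold of 5, a cluster lying mostly inside the locus, only clusters in no other locus, no call for clusters with an input count of 1, merging of touching clusters, and, added after seeing the data, a −log10 p threshold of 2. Of the 37 recomputed summary values, 29 stayed within the counting interval, within the span of the second to ninth gene for the median, or within 1.5 times for counts. Some of the 37 could not move, so this count overstates stability. The median highest fold uses neither threshold, and the share within 5000 nt stays at 100% wherever an alternative only removes calls. With a fold threshold of 4, 3 Notch genes were called (6.55% of clusters) and 10 further pathway genes. With a −log10 p of at least 5, 3 were called (7.74%). Without calls on an input of 1, 3 were called (4.76%), Notch2 with 6 clusters and Hes5 and Rbpj with 1 each, and the median highest fold was 2.23. Notch2 and Rbpj were called under every alternative, Notch3 was lost in the last of these and among clusters in no other locus, Hey1 in all 3 and Hes5 in the first 2, and all enriched clusters lay within 5000 nt under each alternative for which this was computed. With a −log10 p threshold of 2, Notch1 was called with 2 clusters. With a fold threshold of 2, 5 Notch genes were called (12.5% of clusters) and 23 further pathway genes. With touching clusters merged, 5 Notch genes were called (8.92% of clusters), and Notch2 held 8 enriched clusters in place of 12. The shares over all clusters and all genes were not recomputed under the alternatives. The counts given here therefore cannot be set against the 11.6% and 31.5% of the main thresholds. Depth limits Jag1 and Hes1, with 4 and 11 immunoprecipitate reads.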

Other observations

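Clusters just outside the loci were also examined, within 5000 nt of either end and on the strand of the gene. Beyond the 3′ ends there were 5 clusters past Hes5 and 1 past Dll3, with folds of at most 1.98 and none enriched, and all 6 lay inside other annotated genes, Pank4 and Selenov. Beyond the 5′ ends there were 2, upstream of Dll3 and inside Timm50, with folds of 3.15 and 2.15 and neither enriched. The other 8 genes had no cluster in either flank, so no enriched signal of these 10 genes continued past the annotated 3′ end.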
